A study of Canis lupus familiaris with 9 samples.

Results

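The genes described here are 7 growth factor receptors and ligands of dogs that kinase inhibitors used in canine cancer act on, directly or through their receptors. The receptors are PDGFRA, PDGFRB, KIT and FLT3, and the ligands are PDGFA, PDGFB and KITLG. They were chosen by gene symbol and not by a cut on their values, though with earlier results of these data known. Each symbol was found once, so the set is 7 of 28008 features, of which 15523 carry a usable symbol. The Ensembl identifiers are ENSCAFG00000002057 for PDGFRA, ENSCAFG00000018214 for PDGFRB, ENSCAFG00000002065 for KIT, ENSCAFG00000006716 for FLT3, ENSCAFG00000011193 for PDGFA, ENSCAFG00000001356 for PDGFB and ENSCAFG00000006091 for KITLG.

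The 4 receptors belong to the class III receptor tyrosine kinases, which pair up on ligand binding, phosphorylate each other and pass the signal to RAS, PI3 kinase, SRC kinases and STAT factors. PDGF receptors act mainly in fibroblasts, pericytes and smooth muscle. KIT and its ligand, stem cell factor (KITLG), maintain blood stem cells, mast cells and melanocytes, while FLT3 serves early blood progenitors and dendritic cells. Mature T cells are not a usual site of any of the 4 receptors. Toceranib, a drug licensed for canine mast cell tumours, and masitinib act on KIT and PDGF receptors.

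RNA sequencing was done on 9 canine samples. The Boxer group holds 3 peripheral T-cell lymphomas (PTCL) of the CD4+ type from Boxers: a castrated male aged 6 years, a spayed female aged 8 years and a second castrated male aged 6 years. The other-breed group holds 3 such lymphomas from a Cavalier King Charles Spaniel aged 3 years, a Rhodesian Ridgeback aged 4 years (both spayed females) and a castrated male Collie aged 11 years. The controls are CD4+ T cells sorted from 3 samples of hounds without disease, each an unneutered female aged 1 year. Lymphomas and controls thus differ in breed, age and neutering as well as in disease, and these cannot be told apart. Sex differs in part, since 3 of the 6 lymphomas are from females, as are all 3 controls. Sorting is named for the controls and not for the lymphomas, and the tissue the lymphomas came from is not given. Separate dogs are assumed and not stated for the controls, so the p-values rest on a spread among samples that may be technical.

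Libraries held 11710623 to 18488468 reads assigned to genes. Log2 profiles of 2 libraries of a group correlated at 0.959 to 0.980 among controls, 0.893 to 0.911 among Boxer lymphomas and 0.849 to 0.891 among other-breed lymphomas. The 7 T cell markers found summed to 56525 to 97397 in lymphomas and 67455 to 70732 in controls, while CD4 itself was not analysed here. Values are normalised read counts: reads of a gene divided by 1 factor per library. They are not divided by gene length, so levels are compared between libraries for 1 gene, never between genes. Each fold change below is a difference of mean log2(value + 1), and the added 1 shrinks it for genes with few reads.

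All 7 genes rose in Boxer lymphomas against controls, with no overlap between those groups, where 21.5% of all 15155 tested genes were called higher (limma, Benjamini-Hochberg adjusted p under 0.05) and 28.5% were higher without overlap. Genes were tested if 3 or more compared libraries reached a value of 10. PDGFRB and KITLG stayed under 10 in every control, so once tested they could not overlap. Their lack of overlap was fixed by the filter, which favoured their calls as well. In other-breed lymphomas, whose 3 libraries ranged widely, FLT3 and PDGFA rose, which is 2 of 5 genes tested, where 15.5% of all 14631 tested genes were called higher. Over the 6 lymphomas together PDGFRA, PDGFRB, PDGFA and FLT3 rose, which is 4 of 7 genes, where 19.4% of all 15977 tested genes were called higher. By edgeR on the recovered reads 3 of the 7 rose over all lymphomas, and by DESeq2 all 7. With sex as a covariate PDGFA and FLT3 passed, 2 of the 7, and with age none did; every control was 1 year old, so the age term was estimated among the lymphomas. In bulk RNA, more cells of a type and more RNA per cell cannot be told apart.

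**Figure D1:**
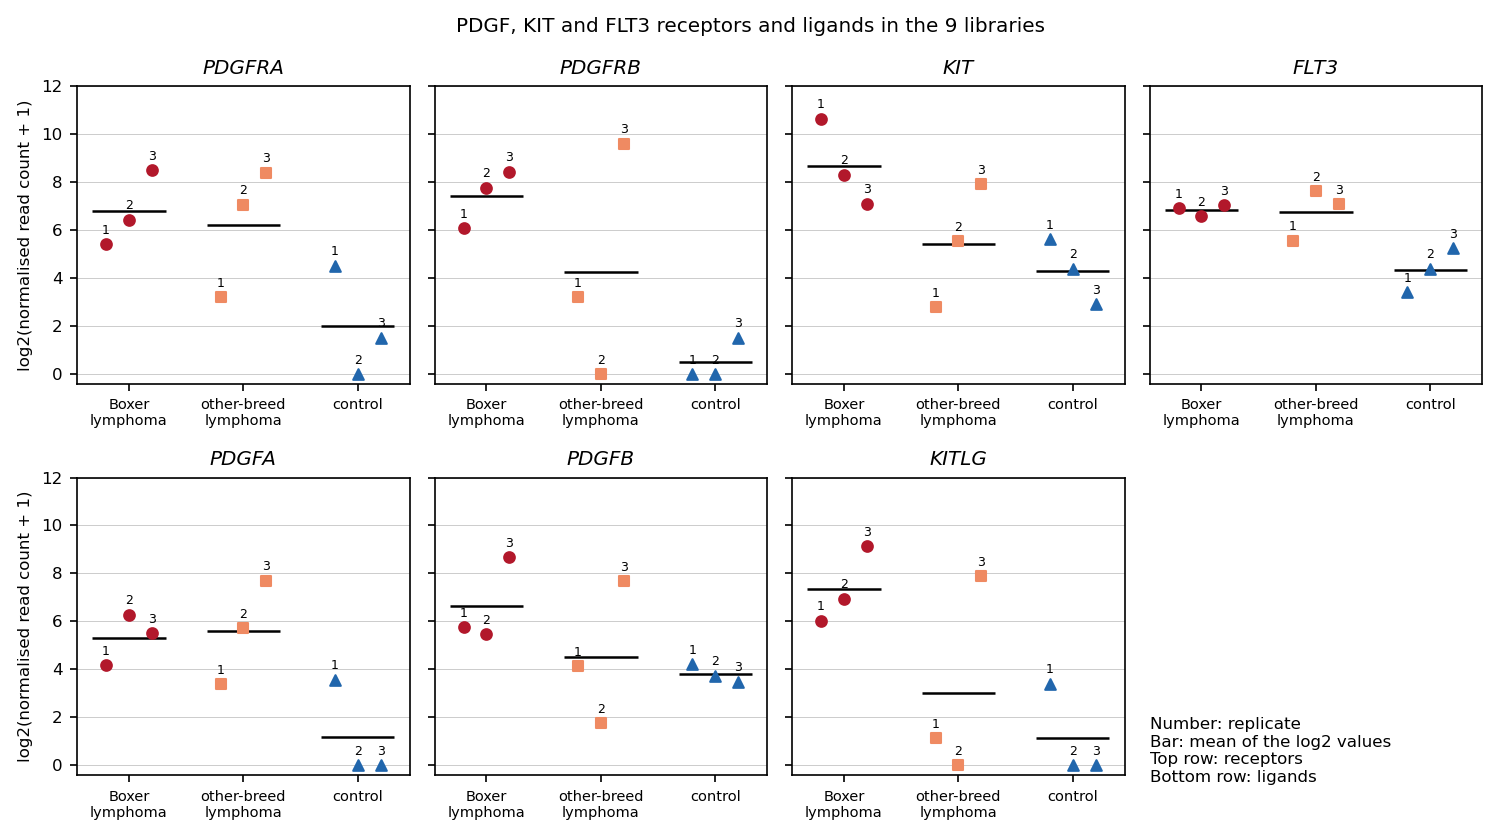
Log2(normalised read count + 1) of each receptor (top row) and ligand (bottom row) in every library, with Boxer lymphomas as circles, other-breed lymphomas as squares and controls as triangles. Numbers are replicates and bars are group means of the log2 values. The 3 Boxer lymphomas lie above all 3 controls in every panel, while for every gene but FLT3 at least 1 of other-breed lymphomas 1 and 2 lies no higher than the highest control.

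FLT3, the receptor of early blood progenitors and dendritic cells, had normalised counts of 119, 93.9 and 130 in Boxer lymphomas, 45.9, 196 and 134 in other-breed lymphomas, and 9.55, 19.8 and 37.0 in controls. All 6 lymphomas lay above all 3 controls, and the highest value was in other-breed lymphoma 2. That lymphoma and other-breed lymphoma 1, the lowest in FLT3, were the lowest lymphomas in COL6A1, with 6 and 7 reads. Genes higher in every lymphoma than in every control made up 18.5% of those tested. The log2 fold change was 2.45 ± 0.53 (SE) over all lymphomas (limma adjusted p = 0.00607), 2.49 ± 0.54 in Boxer lymphomas (adjusted p = 0.00924) and 2.41 ± 0.71 in other-breed lymphomas (adjusted p = 0.0409). These comparisons use the same 3 controls. The call over all lymphomas held in 20 of 21 alternative settings, and that in Boxer lymphomas in 15 of 15. The other-breed call held in 8 of 14. It ended without other-breed lymphoma 2 (adjusted p = 0.0868) or 3 (0.0901), without control 1 (0.123), 2 (0.116) or 3 (0.0582), and without the filter on low values (0.0553).

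The spread of FLT3 among lymphomas was 0.70 (SD of log2 values, n = 6), and 59.6% of tested genes had a smaller one. Every other gene of the set varied more, from 1.53 for PDGFA to 3.75 for KITLG, against a median of 0.56 over all tested genes. FLT3LG, the ligand of FLT3, had 392, 406 and 293 in Boxer lymphomas, 353, 387 and 436 in other-breed lymphomas, and 378, 586 and 747 in controls. Its groups overlapped, and the fold change of -0.55 did not pass the test (limma adjusted p = 0.0880). Of 9 dendritic cell markers tested over all lymphomas, 5 (CLEC9A, XCR1, BATF3, IRF8 and CD83) were higher, against 19.4% of all genes, and 1 (CCR7) was lower. In Boxer lymphomas 5 of 9 were higher and 1 lower, where 21.5% of all genes were higher. In other-breed lymphomas 2 of 7 were higher and 1 lower, where 15.5% of all genes were higher. CLEC9A, a receptor of cross-presenting dendritic cells picked after its values were seen, had 14.4, 43.6 and 55.2 in Boxer lymphomas, 8.24, 50.5 and 67.9 in other-breed lymphomas, and 0, 0 and 1.85 in controls. The part of such cells in the FLT3 values was not tested. Summed values of the list were lower in lymphomas (8180 to 13430) than in controls (19349 to 21488), since CCR7, which T cells also express, makes up most of them.

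KIT, the receptor for stem cell factor, stood at 1595, 314 and 136 in Boxer lymphomas, 5.89, 44.9 and 238 in other-breed lymphomas, and 47.8, 19.8 and 6.48 in controls. The Boxer lymphomas lay above all controls, other-breed lymphoma 1 lay below all of them, and other-breed lymphoma 2 lay within their range. KIT rose in Boxer lymphomas by 4.38 ± 0.99 (limma adjusted p = 0.0107), and that call held in 15 of 15 alternatives. It did not pass in other-breed lymphomas (1.10 ± 1.31, adjusted p = 0.549) or over all 6 (2.74 ± 1.40, adjusted p = 0.149). The call over all 6 turned on the method and on 1 library. DESeq2 gave 3.98 with all libraries in (adjusted p = 0.00192), and without other-breed lymphoma 1, the lowest in KIT, limma gave 3.60 (adjusted p = 0.0222).

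Mast cells are a known source of KIT, so their markers were read beside it. In Boxer lymphoma 1, with the highest KIT, mast cell carboxypeptidase (CPA3) had 2.55, the IgE receptor subunits MS4A2 and FCER1A had 4.25 and 12.7, and histidine decarboxylase (HDC) had no reads. The chymase gene CMA1 was the exception, at 519 in that library, between 0.79 and 14.6 in the other 5 lymphomas, and at 45.0, 51.2 and 47.2 in controls. The 7 mast cell markers found summed to 27.5 to 556 in Boxer lymphomas, 22.4 to 118 in other-breed lymphomas and 66.9 to 76.4 in controls. None of the 3 tested passed over all lymphomas in either direction (limma; 0 at an adjusted p under 0.05), and CMA1 fell in other-breed lymphomas by 3.53 (limma adjusted p = 0.0102). Whether cells other than lymphoma cells carry the KIT reads was not tested beyond these values.

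MITF, a transcription factor of KIT-dependent melanocytes and mast cells that macrophages express too, was higher in Boxer lymphomas (172 ± 111) than in controls (4.21 ± 3.50, SD, n = 3 each; 5.04 ± 0.71, limma adjusted p = 0.00163). Of the 8 factors of KIT-dependent lineages listed, 4 had enough reads to test and 2 rose over all lymphomas, MITF and the myeloid factor SPI1. In that comparison 19.4% of all tested genes rose. GATA2 did not exceed 15.9 in any library, and HOXA9 stayed below 1.

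KITLG encodes stem cell factor. It had 64.6, 122 and 562 in Boxer lymphomas, 1.18, 0 and 237 in other-breed lymphomas, and 9.55, 0 and 0 in controls. The Boxer lymphomas and other-breed lymphoma 3 were high, whereas other-breed lymphomas 1 and 2 sat within the range of the controls. KITLG rose in Boxer lymphomas by 6.24 ± 1.14 (limma adjusted p = 0.00469), in 12 of 12 alternatives as well. Those 12 hold no run without a Boxer lymphoma, since KITLG then fell under the filter and was not tested. Over all lymphomas the change of 4.06 ± 1.98 did not pass (adjusted p = 0.133), though it did by DESeq2 (5.71, adjusted p = 0.0331) and, with limma, without other-breed lymphoma 2, which had no KITLG read (5.09, adjusted p = 0.0381). In the other-breed comparison it was not tested, because fewer than 3 of those 6 libraries reached a value of 10. Reads pooled over the lymphomas were 66.9 times those of the controls per unit of library size, with a 95% counting interval of 32.4 to 167 that leaves out the spread between dogs; controls held 7 reads in all.

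PDGFRB, the receptor that marks pericytes and other mural cells, was nearly absent from controls. It had 66.3, 215 and 343 in Boxer lymphomas, 8.24, 0 and 769 in other-breed lymphomas, and 0, 0 and 1.85 in controls. Other-breed lymphoma 3 had the highest value of all libraries, while other-breed lymphoma 2 had no read in a library where 3 reads would be worth 2.37. The Boxer lymphomas rose by 6.91 ± 0.77 (limma adjusted p = 7.23e-04), in 12 of 12 alternatives as well. As for KITLG, no run without a Boxer lymphoma is among the 12, since PDGFRB then fell under the filter. Pooled reads gave a ratio of 330 over all lymphomas (95% counting interval 91.3 to 2730), with 2 control reads behind it.

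Over all 6 lymphomas the PDGFRB change of 5.34 ± 1.84 passed narrowly (limma adjusted p = 0.0451), and 10 of 21 alternatives kept the call. It ended without Boxer lymphoma 1 (adjusted p = 0.0666), 2 (0.0782) or 3 (0.0796), without other-breed lymphoma 3 (0.0703) and without control 1 (0.132), 2 (0.135) or 3 (0.0895). It ended as well with a pseudocount of 5 (0.0573) and without the filter on low values (0.0558).

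PDGFRA, the PDGF receptor of fibroblasts and mesenchymal progenitors, had 41.6, 85.3 and 356 in Boxer lymphomas, 8.24, 132 and 332 in other-breed lymphomas, and 21.8, 0 and 1.85 in controls. Other-breed lymphoma 1 was the only lymphoma within the control range, and control 1, with 16 reads, was the only control above 3 reads. The change was 4.49 ± 1.26 over all lymphomas (limma adjusted p = 0.0197), 4.77 ± 1.24 in Boxer lymphomas (adjusted p = 0.0189) and 4.21 ± 1.59 in other-breed lymphomas (adjusted p = 0.0845). The overall call ended without control 2 (3.48, adjusted p = 0.103) or control 3 (4.24, adjusted p = 0.0753). The Boxer call ended without Boxer lymphoma 3 (0.0599), control 2 (0.0610) or control 3 (0.0666). The other-breed change passed by DESeq2 (4.38, adjusted p = 0.00873) and, with limma, without other-breed lymphoma 1, the lowest of the 3 (5.71, adjusted p = 0.0254).

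The receptors PDGFRA and PDGFRB parted in other-breed lymphoma 2. That library had 168 PDGFRA reads and 0 PDGFRB reads, while each of the other 5 lymphomas had reads of both genes. PDGFRA, KIT and KDR (a VEGF receptor) follow one another in the gene order of the dog assembly UU_Cfam_GSD_1.0. They did not move as a block: KDR had 111, 173 and 1128 in Boxer lymphomas, 49.4, 27.6 and 1156 in other-breed lymphomas, and 626, 298 and 262 in controls, and it did not pass the test (limma adjusted p = 0.509). Boxer lymphoma 1, highest in KIT, was the lowest Boxer lymphoma for PDGFRA and KDR.

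Of the PDGF ligands, PDGFA had 17.0, 76.8 and 44.8 in Boxer lymphomas, 9.42, 52.0 and 207 in other-breed lymphomas, and 10.9, 0 and 0 in controls. Other-breed lymphoma 1 fell below control 1, and all other lymphomas lay above the controls. The change was 4.27 ± 1.07 over all lymphomas (limma adjusted p = 0.0120), 4.13 ± 1.09 in Boxer lymphomas (adjusted p = 0.0199) and 4.41 ± 1.38 in other-breed lymphomas (adjusted p = 0.0492). The controls held 8 PDGFA reads in all, every one in control 1. The overall call ended without control 2 (adjusted p = 0.0651) or control 3 (0.0630), and with edgeR on the recovered reads (0.0516).

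In Boxer lymphomas the PDGFA call ended without Boxer lymphoma 2 (adjusted p = 0.0653), Boxer lymphoma 3 (0.0582), control 2 (0.0767) or control 3 (0.0757), and with edgeR (0.0602). The other-breed call held in 5 of 11 alternatives. It ended without control 2 (adjusted p = 0.157) or control 3 (0.151), with a pseudocount of 5 (0.0603), without the filter on low values (0.0661), with edgeR (0.0756) and with the replicate block (0.0914).

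PDGFB, which binds both PDGF receptors, had 53.5, 43.6 and 407 in Boxer lymphomas, 16.5, 2.37 and 203 in other-breed lymphomas, and 17.7, 12.4 and 10.2 in controls. The Boxer lymphomas and other-breed lymphoma 3 lay above the controls, other-breed lymphoma 1 lay among them, and other-breed lymphoma 2 lay below. PDGFB rose in Boxer lymphomas by 2.82 ± 0.85 (limma adjusted p = 0.0323), a call that ended without control 1 (0.0717), 2 (0.0916) or 3 (0.100) and in a fit of all 3 groups (0.140). The limma change did not pass over all lymphomas (1.76 ± 1.27, adjusted p = 0.299), where the DESeq2 one did (3.17, adjusted p = 0.0128), nor in other-breed lymphomas (0.70 ± 1.37, adjusted p = 0.725).

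In other-breed lymphomas 1 of the 5 tested genes, FLT3, was higher without overlap, against 24.7% of all genes. The median log2 fold change was 4.38 over the 7 genes tested in Boxer lymphomas and 2.41 over the 5 tested in other-breed lymphomas. That of all genes tested was 0.01 and -0.03. The medians of the set rest on different genes. PDGFRB and KITLG, not tested in other-breed lymphomas, had the largest changes in Boxer lymphomas (6.91 and 6.24).

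**Figure D2:**
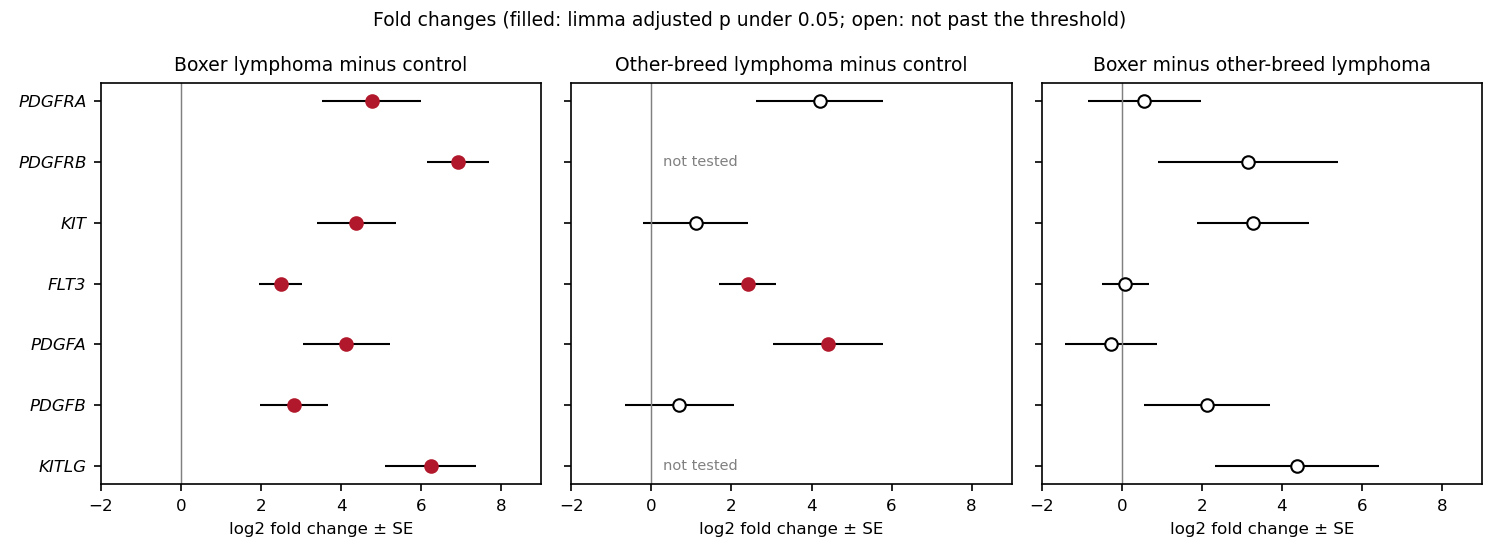
Log2 fold change ± SE of each gene from limma for Boxer lymphomas against controls (left), other-breed lymphomas against controls (middle) and Boxer against other-breed lymphomas (right), with filled points past an adjusted p of 0.05. All 7 points are filled on the left, 2 in the middle and none on the right; KITLG and PDGFRB were not tested in the middle comparison.

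Boxer and other-breed lymphomas were compared directly, without the controls. No gene of the set, and 0 of 15112 genes in all (0.00%), passed with limma, although 753 genes (4.98%) had an unadjusted p under 0.05. By edgeR 0 genes passed, and by DESeq2 44 were higher and 58 lower, none of them among the 7. The largest differences were 4.37 ± 2.05 for KITLG and 3.28 ± 1.40 for KIT (limma adjusted p = 0.881 for each, unadjusted p = 0.0706 and 0.0522). Those for PDGFRB (3.15 ± 2.24), PDGFB (2.12 ± 1.58), PDGFRA (0.56 ± 1.41), FLT3 (0.09 ± 0.59) and PDGFA (-0.28 ± 1.15) were less than 2 standard errors. All 7 genes overlapped between the breed groups, where 4.99% of all genes were higher in Boxer lymphomas without overlap and 5.70% were lower. The passing of a test in 1 breed group and not in the other is therefore no shown difference between them.

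Stromal genes were next set beside the receptors and ligands. COL6A1, a collagen VI chain made by fibroblasts, had 149, 283 and 1265 in Boxer lymphomas, 8.24, 4.73 and 875 in other-breed lymphomas, and 1.36, 0 and 0 in controls. MMP2, a matrix-degrading gelatinase, had 273, 173 and 629 in Boxer lymphomas, 9.42, 39.4 and 131 in other-breed lymphomas, and no read in any control. For both genes other-breed lymphomas 1 and 2 were the lowest lymphomas and Boxer lymphoma 3 the highest. COL6A1 left a wide gap between those 2 and the remaining 4, and MMP2 did not.

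The order of the 6 lymphomas by KITLG was the same as by COL6A1: Boxer lymphoma 3, other-breed lymphoma 3, Boxer lymphomas 2 and 1, and other-breed lymphomas 1 and 2. PDGFRB differed from that order only in that other-breed lymphoma 3 came before Boxer lymphoma 3. PDGFB differed only in that Boxer lymphoma 1 came before Boxer lymphoma 2. Other-breed lymphomas 1 and 2 had 7 and 6 COL6A1 reads and 1 and 0 KITLG reads, too few to rank them. By contrast with KITLG, FLT3 was highest in other-breed lymphoma 2, which was low in COL6A1, and PDGFRA was higher there than in 3 other lymphomas. For MMP2, as for FLT3, other-breed lymphoma 1 was the lowest. On COL6A1 the lymphomas fell into clusters of 4 and 2, separated by 4.02 of a range of 7.79 log2 units, so no correlation over the 6 is given. A cluster of 4 is too small for one.

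**Figure D3:**
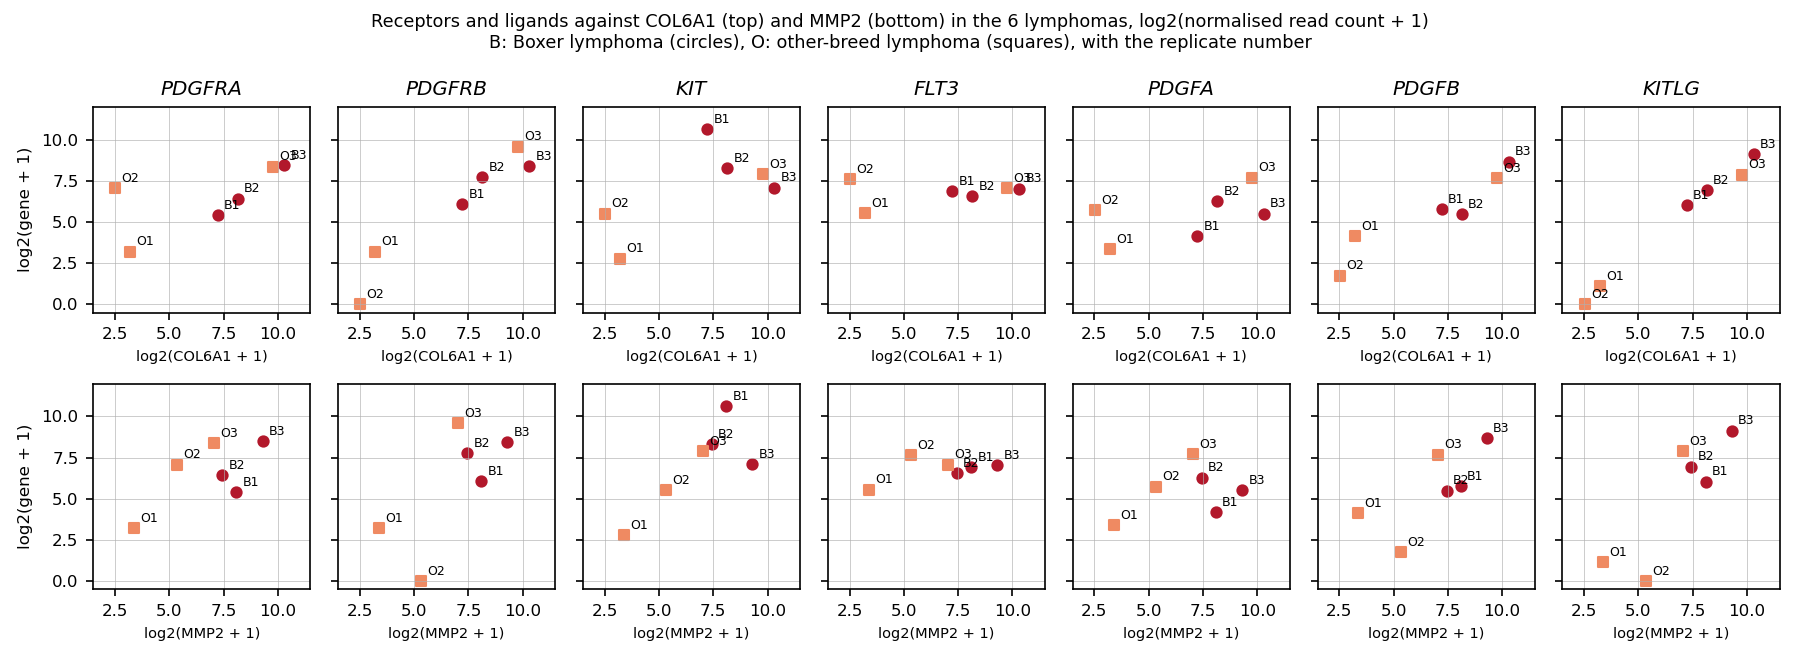
Each receptor and ligand against COL6A1 (top) and MMP2 (bottom) in the 6 lymphomas, all as log2(normalised read count + 1), with Boxer lymphomas as circles marked B and other-breed lymphomas as squares marked O. KITLG climbs with COL6A1, though other-breed lymphomas 1 and 2 have 1 and 0 KITLG reads and 7 and 6 COL6A1 reads. Other-breed lymphoma 2 is highest for FLT3 and above 3 other lymphomas for PDGFRA, while other-breed lymphoma 1 is lowest for MMP2 and FLT3.

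Within the Boxer lymphomas the ratios of KITLG and PDGFRA to COL6A1 were close to constant, though KITLG itself differed 8.71-fold between the lowest and the highest. KITLG stood at 43.4, 43.3 and 44.4 per 100 counts of COL6A1 in Boxer lymphomas 1, 2 and 3, and at 14.3, 0 and 27.1 in other-breed lymphomas 1, 2 and 3. PDGFRA stood at 28.0, 30.2 and 28.1 in Boxer lymphomas, and at 100, 2800 and 38.0 in other-breed lymphomas. Against MMP2 neither was steady in Boxer lymphomas 1, 2 and 3, with KITLG at 23.7, 70.9 and 89.4 and PDGFRA at 15.3, 49.5 and 56.6 per 100 counts. These ratios carry the gene lengths, so they compare libraries and not genes. The agreement over 3 libraries was seen after computing the ratios of all 7 genes to both COL6A1 and MMP2. The remaining genes had no such steady ratio to COL6A1. In Boxer lymphomas 1, 2 and 3 PDGFRB stood at 44.6, 76.2 and 27.1 and PDGFB at 36.0, 15.4 and 32.2. PDGFA stood at 11.4, 27.2 and 3.54 and FLT3 at 80.0, 33.2 and 10.3. KIT had 1073, 111 and 10.8 in the Boxer lymphomas, in which KIT ran opposite to COL6A1.

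On MMP2 the lymphomas formed no separate clusters, and 7 correlations were computed over the 6 lymphomas. All 3 Boxer lymphomas were higher in MMP2 than all 3 other-breed lymphomas, so each correlation mixes the difference between the breed groups with any relation among lymphomas. The highest was that of KITLG (Pearson r = 0.87, exact permutation p = 0.0319, adjusted over the 7 p = 0.180; Spearman rho = 0.71, exact permutation p = 0.136, adjusted p = 0.408). KIT followed (r = 0.80, exact permutation p = 0.0514, adjusted p = 0.180; rho = 0.66, p = 0.175, adjusted p = 0.408). PDGFB, PDGFRB and PDGFRA had r of 0.73, 0.69 and 0.69, with exact permutation p of 0.101, 0.131 and 0.126 and an adjusted p of 0.183 each. FLT3 and PDGFA had r of 0.50 and 0.39 (exact permutation p = 0.310 and 0.449, adjusted p = 0.361 and 0.449). None passed after adjustment.

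Rank correlations with MMP2 were 0.77 for PDGFB, 0.54 for PDGFRB, 0.49 for PDGFRA, and 0.09 for FLT3 and for PDGFA (exact permutation p from 0.103 to 0.919, adjusted p from 0.408 to 0.919). Without Boxer lymphoma 3 and other-breed lymphoma 1, the libraries farthest from the median of MMP2, r was 0.97 for KIT, 0.83 for KITLG, 0.75 for PDGFB and 0.75 for PDGFRB. It was -0.47 for PDGFRA, -0.27 for PDGFA and -0.85 for FLT3. These values over the 4 lymphomas left are descriptions, too few for a reading. Each breed group holds 3 lymphomas, too few for a correlation within it.

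Marker lists of other cell types showed where the lymphoma libraries differed. Fibroblast markers summed to 5164 to 17419 in Boxer lymphomas, 1429 to 14886 in other-breed lymphomas and 2859 to 3813 in controls, where THY1 and COL5A1 made up most of the control sum. Of 16 tested, 7 rose and 0 fell over all lymphomas, in Boxer lymphomas 11 rose and 1 (THY1) fell of 14, and in other-breed lymphomas 0 of 8 passed in either direction. Pericyte and smooth muscle markers summed to 1811 to 2511 in Boxer lymphomas, 551 to 3352 in other-breed lymphomas and 296 to 365 in controls, and 5 of 10 rose over all lymphomas, 9 of 10 in Boxer lymphomas and 1 of 3 in other-breed lymphomas. Endothelial markers summed to 1848 to 4208 in Boxer lymphomas, 403 to 6854 in other-breed lymphomas and 371 to 412 in controls, with 4 of 10 higher over all lymphomas, 9 of 10 in Boxer lymphomas and 1 of 4 in other-breed lymphomas. Among all tested genes 19.4% rose over all lymphomas, 21.5% in Boxer lymphomas and 15.5% in other-breed lymphomas. Many of these markers were near 0 in controls and were tested only where enough lymphomas were high. The counts of the comparisons therefore cover different markers and are not alike.

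Macrophage markers summed to 6105 to 12765 in Boxer lymphomas, 916 to 21263 in other-breed lymphomas and 134 to 205 in controls, and 9 of 10 rose over all lymphomas, 9 of 9 in Boxer lymphomas and 7 of 9 in other-breed lymphomas. In these comparisons 19.4%, 21.5% and 15.5% of all tested genes rose, the shares to set beside each count of this paragraph. LYZ and APOE made up most of the macrophage sum in every library. Over all lymphomas 1 of 5 progenitor markers (LMO2) and 2 of 5 platelet markers (GP1BB and TREML1) rose, while 0 of 8 B cell markers passed. In Boxer lymphomas, where KIT was called, 2 of 5 progenitor markers rose, LMO2 and CD34, and in other-breed lymphomas 0 of 4. CD34, which endothelial cells express too, had 67.1, 116 and 272 in Boxer lymphomas, 3.53, 0 and 529 in other-breed lymphomas, and 1.36, 1.65 and 2.78 in controls (5.49 ± 0.63 in Boxer lymphomas, limma adjusted p = 7.86e-04). DNTT, an enzyme of early lymphocytes, had 1.70, 2277 and 179 in Boxer lymphomas, 35.3, 59.9 and 70.0 in other-breed lymphomas, and 64.2, 58.6 and 42.6 in controls. Its Boxer lymphomas lay on either side of the controls, and it did not pass there (limma adjusted p = 0.753). Of the platelet markers PPBP (platelet basic protein), a defining one, did not exceed 12.7 in any library. The part of these cells in the receptor and ligand values was not tested. Other-breed lymphomas 1 and 2 were low in fibroblast, pericyte and endothelial markers together with PDGFRB, PDGFB and KITLG.

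**Figure D4:**
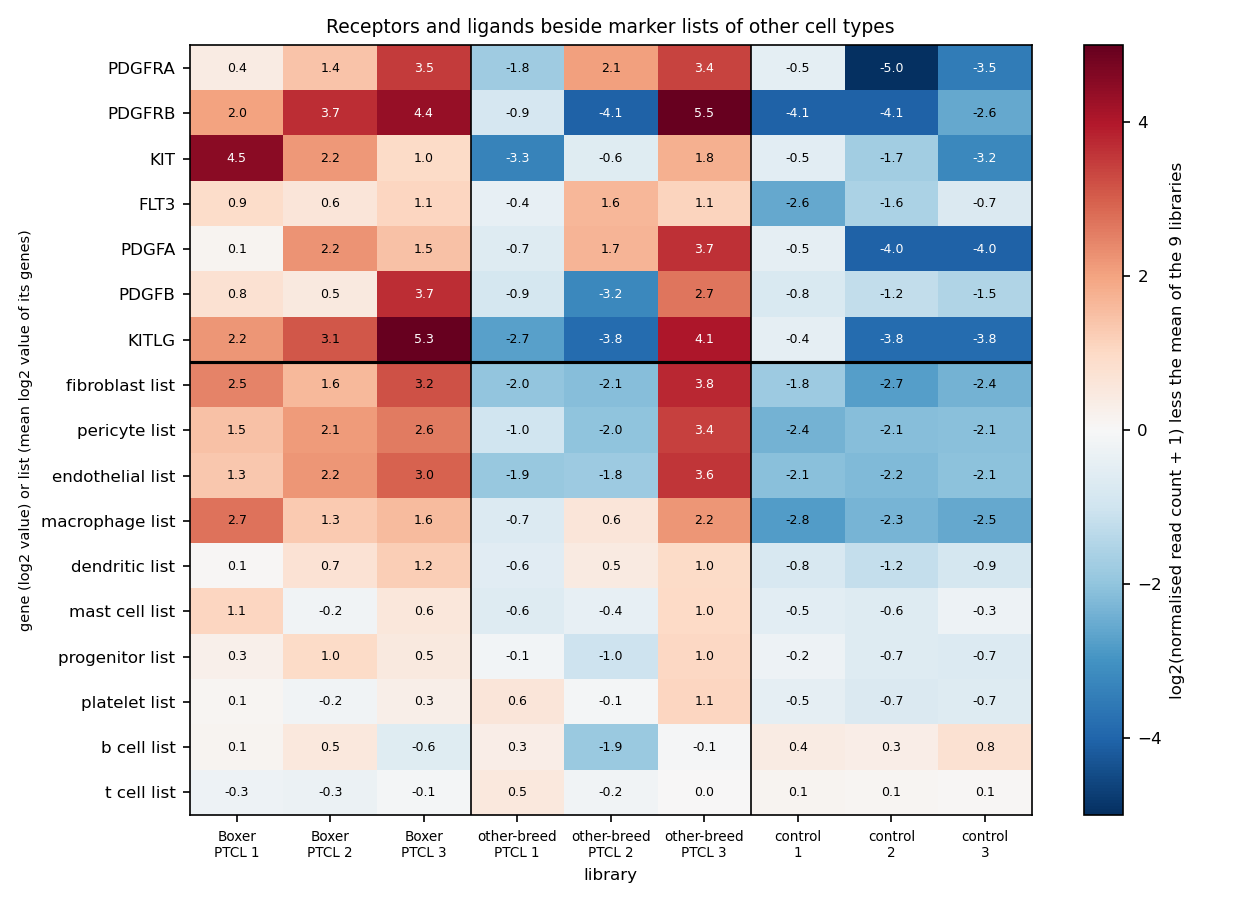
Log2(normalised read count + 1) of the 7 genes (above the line) and mean log2 value of marker lists (below) in the 9 libraries, each less its mean over the libraries, with red above and blue below that mean and full colour from 5 units on. PDGFRB, PDGFB, KIT and KITLG are negative in other-breed lymphomas 1 and 2 and in the controls, and positive in the other libraries. The fibroblast, pericyte, endothelial and progenitor lists all have these same signs, so the signs do not tell those lists apart. FLT3 is positive in other-breed lymphoma 2 (1.6), where the fibroblast list is at -2.1. It is at -0.4 in other-breed lymphoma 1, where that list is at -2.0.

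The genes most like each member over the 9 libraries were found among 11246 genes by the root mean square difference of the log2 values, each centred on its own mean. For PDGFRB they were MCAM (0.65), MYLK (0.71) and TFPI (0.78), of which MCAM and MYLK are on the pericyte list. For KITLG they were ADGRL4 (0.55), FERMT2 (0.63) and COL12A1 (0.78). ADGRL4 is an adhesion receptor of endothelial cells, and COL12A1 is a collagen chain.

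PDGFRA was closest to VASH1 (0.83), TSPAN15 (0.90) and WDFY3 (0.90), and PDGFA ranked 6 in its list (0.91), whereas PDGFRB ranked 4425 (2.71). PDGFA itself was closest to FBLN2 (0.85), NACC2 (0.90) and MAP4K3 (0.90). PDGFB was closest to EFEMP2 (0.51), SYT16 (0.61) and SOX9 (0.64), and KIT to MAMDC2 (0.82), HUNK (0.85) and MET (0.88). FLT3 was closest to FILIP1 (0.40), KIAA0895L (0.45) and NAGLU (0.46). These are descriptions of 9 libraries in which lymphomas and controls stand apart, and they carry no test.

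Other receptors and ligands of the family were read from a list of 11 genes, of which 10 were found and tested. Over all lymphomas 5 rose (PDGFC, CSF1R, IL34, FURIN and LRP1) and 0 fell, 7 rose in Boxer lymphomas, and 2 of 8 tested (CSF1R and FURIN) rose in other-breed lymphomas. Among all tested genes 19.4% rose over all lymphomas, 21.5% in Boxer lymphomas and 15.5% in other-breed lymphomas. These shares stand beside the counts of the lists below too. CSF1R, the macrophage colony-stimulating factor receptor and the gene next to PDGFRB in UU_Cfam_GSD_1.0, had 1246, 447 and 685 in Boxer lymphomas, 34.1, 168 and 824 in other-breed lymphomas, and 2.73, 9.08 and 13.0 in controls. Every lymphoma exceeded every control (5.44 ± 1.01, limma adjusted p = 0.00290). FURIN, a protease that processes growth factor precursors, rose in other-breed lymphomas (4744 ± 2926 against 1370 ± 138 in controls; 1.63 ± 0.38, limma adjusted p = 0.0184), a call that ended without control 1, 2 or 3 (adjusted p of 0.0556 to 0.0696).

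Adaptors and kinases that bind the receptors went in either direction, with 8 higher and 9 lower of 33 over all lymphomas, 9 and 11 in Boxer lymphomas, and 4 and 8 in other-breed lymphomas. Of all tested genes, 15.7% were called lower over all lymphomas, 17.9% in Boxer and 14.2% in other-breed lymphomas. FES, a cytoplasmic tyrosine kinase downstream of KIT, averaged 1368 ± 362 in lymphomas and 114 ± 16.4 in controls (SD, n = 6 and 3; 3.54 ± 0.24, limma adjusted p = 2.08e-05). GRB10, an adaptor of receptor kinases, averaged 788 ± 381 in lymphomas and 110 ± 37.2 in controls (2.74 ± 0.43 on the log2 scale, adjusted p = 0.00128 by limma). LYN, a SRC-family kinase of B and myeloid cells, averaged 1081 ± 485 in Boxer lymphomas and 67.6 ± 24.1 in controls (3.90 ± 0.44 on the log2 scale, adjusted p = 7.32e-04 by limma).

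Among those that fell, STAT5B, a transcription factor activated by KIT and FLT3, averaged 1588 ± 461 in lymphomas and 4663 ± 275 in controls (-1.60 ± 0.24 on the log2 scale, adjusted p = 9.10e-04 by limma). PLCG1, the phospholipase that couples receptors to calcium release, averaged 5670 ± 426 in other-breed lymphomas and 11255 ± 175 in controls (-0.99 ± 0.14 on the log2 scale, adjusted p = 0.00359 by limma).

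Of 16 regulators of receptor signalling and turnover, mostly ubiquitin ligases and inhibitors, 5 fell over all lymphomas (CBL, CBLB, SOCS3, RASA1 and USP8) and 1 rose (SH2B2). In that comparison 15.7% of all tested genes fell and 19.4% rose. CBLB, a ubiquitin ligase that also restrains T cell activation, averaged 502 ± 243 in lymphomas and 2068 ± 423 in controls (-2.14 ± 0.35 on the log2 scale, adjusted p = 0.00141 by limma). In Boxer lymphomas PTPRJ, a receptor phosphatase that acts on PDGF receptors, averaged 308 ± 84.7 against 1005 ± 130 in controls (-1.73 ± 0.24 on the log2 scale, adjusted p = 0.00155 by limma), a call that ended in the fit of all 3 groups (adjusted p = 0.0936). USP8, a deubiquitinase of endosomes, averaged 1599 ± 300 in Boxer lymphomas and 4083 ± 730 in controls (-1.36 ± 0.21 on the log2 scale, adjusted p = 0.00230 by limma).

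Of 15 RAS, RAF, MEK, ERK and AKT genes 1 rose (RPS6KA3) and 4 fell, ARAF and BRAF among them, over all lymphomas. There 19.4% of all tested genes rose and 15.7% fell. BRAF averaged 202 ± 28.6 in lymphomas and 432 ± 43.3 in controls (-1.10 ± 0.20 on the log2 scale, adjusted p = 0.00245 by limma). With age as a covariate the limma calls over all lymphomas ended for BRAF (adjusted p = 0.0546), STAT5B (0.0533), GRB10 (0.0568) and CSF1R (0.147).

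Transcripts known to follow ERK activity had 2 higher (ETV4 and ETV5) and 2 lower (FOS and MYC) of 15 over all lymphomas, 7 higher and 2 lower of 15 in Boxer lymphomas, and 1 higher and 3 lower of 13 in other-breed lymphomas. In the same comparisons 19.4%, 21.5% and 15.5% of all tested genes were higher and 15.7%, 17.9% and 14.2% lower. FOS, an immediate early factor, averaged 1666 ± 311 in Boxer lymphomas and 29612 ± 19026 in controls (-3.83 ± 0.60 on the log2 scale, adjusted p = 0.00258 by limma). ETV5, an ETS factor chosen here after its values were seen, had 1005, 469 and 148 in Boxer lymphomas, 35.3, 55.2 and 49.9 in other-breed lymphomas, and 20.5, 0 and 0.93 in controls. Every lymphoma lay above every control (5.33 ± 1.24, limma adjusted p = 0.00840).

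DUSP4, an ERK phosphatase also chosen after its values were seen, had 1891, 845 and 57.3 in Boxer lymphomas, 75.3, 36.3 and 217 in other-breed lymphomas, and 102, 116 and 118 in controls. Its groups overlapped and it did not pass (limma adjusted p = 0.603). Between the breed groups limma and edgeR called 0 of the 188 genes tested from all pathway and marker lists. DESeq2 called 2 of 175, both higher in Boxer lymphomas: ETV5 (3.52 ± 0.69, adjusted p = 2.49e-04) and the adaptor GRB7 (3.84 ± 0.93, adjusted p = 0.00856). By limma ETV5 differed by 3.14 ± 0.70 (adjusted p = 0.848) and GRB7 by 3.57 ± 0.92 (adjusted p = 0.881).

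**Figure D5:**
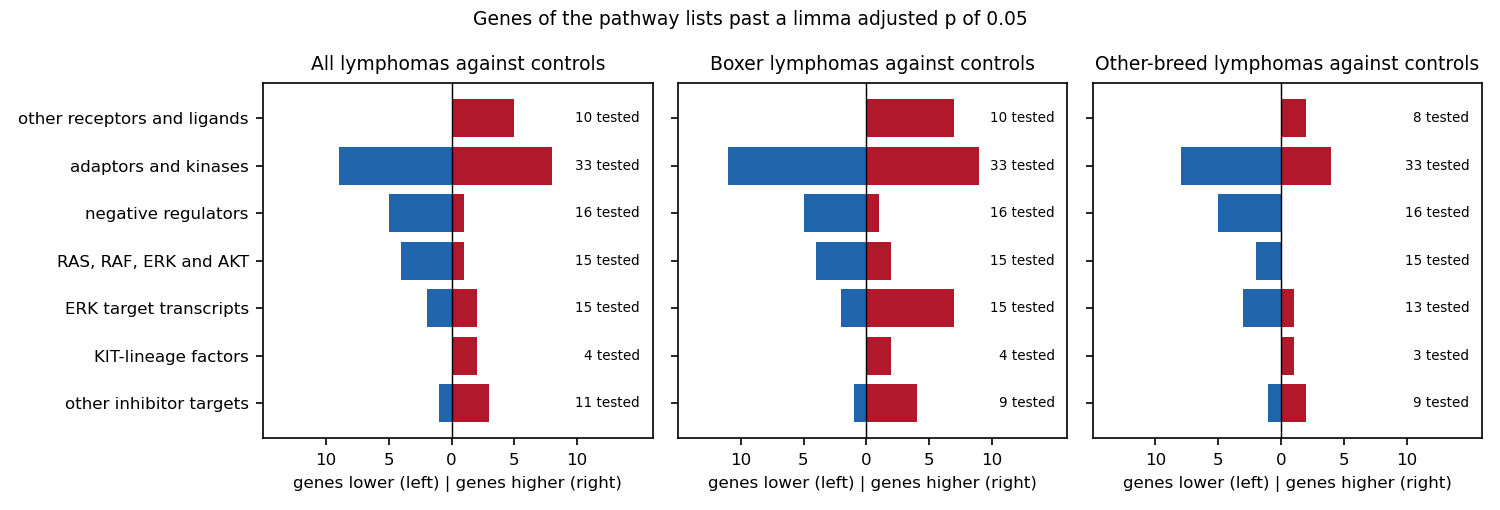
Number of genes of 7 pathway lists past a limma adjusted p of 0.05, with bars to the right for genes higher and to the left for genes lower in all lymphomas, Boxer lymphomas and other-breed lymphomas against the same controls. Other receptors and ligands have bars to the right only (5, 7 and 2 genes), while ERK targets have 7 genes to the right in Boxer lymphomas and 1 in other-breed lymphomas. Among all tested genes 19.4%, 21.5% and 15.5% were higher in these comparisons.

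Of 11 tested receptors and kinases that the inhibitors bind besides the 7 genes, 3 rose and 1 fell over all lymphomas. In that comparison 19.4% of all tested genes rose and 15.7% fell. The inhibitor targets that rose included CSF1R and LYN, given above, and FLT1, a VEGF receptor that falls outside the naming rule (2.32, limma adjusted p = 0.0444). DDR1, a collagen receptor, averaged 1261 ± 357 in other-breed lymphomas and 3580 ± 508 in controls (-1.54 ± 0.24 on the log2 scale, adjusted p = 0.00498 by limma), a call that ended in the fit of all 3 groups (adjusted p = 0.110).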

How the data were processed

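Libraries were made from poly(A)-selected RNA, per the labels' protocols. The submitters' processing notes name TopHat2, HTSeq, DESeq2 and build CanFam3.1, with no version and no strand setting. The deposited unit is a signal: the authors' count of reads for a gene over a library-wide factor. All values came out as whole reads (100% within 0.01 reads), so reads were recovered. Log2(value + 1) was fitted with limma 3.58.1 (R 4.3.3), separately per comparison, over genes that reached a value of 10 in 3 or more compared libraries, with Benjamini-Hochberg adjustment over all genes tested and a threshold of 0.05. The limma fits were also run on simulated data with the same spread in every group. The lymphomas here spread more than the controls, so that run cannot speak for these comparisons and no result is drawn from it. Alternatives were pseudocounts of 0.5 and 5, other filters, TMM scaling, edgeR 4.0.16 and DESeq2 1.42.0 on recovered reads, a replicate block, a fit of all 3 groups, sex or age as a covariate, and libraries left out.

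The 7 genes and all lists were chosen with earlier results of these data known. Up to 4 pathway genes per direction and comparison, those with the smallest p, were named by rule, some of which are not reported here; FLT3LG, KDR, CLEC9A, LMO2, FLT1, CD34, DNTT, GRB7, ETV5, DUSP4 and the mast cell markers were named after their values were seen. Counting intervals and floors (3 reads) cover counting error only. List genes not found under their symbols are not analysed here.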

Additional observations from a re-analysis of the deposited data

Results flagged for a closer look

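Values were checked for a library far from the rest among the 6 lymphomas, in 23 genes, on normalised counts without a log, where chance picks about 1 gene in 20 if values are normally distributed, a rate that does not hold for skewed counts. KIT was highest in Boxer lymphoma 1, at 1595 with the next lymphoma at 314. PDGFA was highest in other-breed lymphoma 3, at 207 with the next at 76.8. Among the pathway genes, BRAF was highest in other-breed lymphoma 2, at 256 with the next at 202. PLCG1 was lowest in Boxer lymphoma 3, at 2879 with the next at 5207. On the log2 scale of the tests the gap to the next lymphoma was 0.298 of the range for KIT, 0.328 for PDGFA and 0.604 for BRAF, under the limit of 0.625 for 6 values, and 0.781 for PLCG1, above it.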

How the results depend on the processing

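Leaving out each library in turn gave 1866 to 3291 genes higher and 1194 to 2605 lower over all lymphomas, 2108 to 2570 and 1238 to 2821 in Boxer lymphomas, and 1007 to 2155 and 617 to 2464 in other-breed lymphomas, against 3092 and 2504, 3256 and 2706, and 2265 and 2084 with all libraries. Of the 7 genes it left 1 to 5 higher over all lymphomas, 3 to 6 in Boxer and 0 to 3 in other-breed lymphomas. In some of these runs the filter left fewer than 7 tested. Without Boxer lymphoma 1, 2 or 3 the Boxer comparison tested 5 and called 5, 4 and 3. The other-breed runs tested 3 or 5. With age as a covariate 1048 genes were higher and 885 lower over all lymphomas, and 0 of the 7; with sex 2 of the 7 passed. DESeq2 called 7 of 7. So did limma without other-breed lymphomas 1 and 2, but these 2 were the lowest lymphomas in KIT, KITLG, PDGFB and PDGFRB, so that count supports nothing. With a filter at 50, 4 genes were tested in Boxer lymphomas and all 4 were called. In other-breed lymphomas a pseudocount of 5, edgeR and the replicate block each left 1 and no filter left 0; with a filter at 50, 0 of the 7 were tested.

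Signs turned as follows, and the cause was not tested. With age as a covariate the change over all lymphomas was -0.17 for KIT, -1.06 for KITLG, -1.11 for PDGFB and -0.10 for PDGFRB, and with sex -0.032 for PDGFB. With a library left out the other-breed change ranged from -0.14 (without other-breed lymphoma 3) to 2.41 for KIT and from -0.88 (without the same library) to 2.08 for PDGFB. Between the breed groups, edgeR and DESeq2 gave -0.15 each for FLT3 and -0.31 and -0.33 for PDGFRB. In that comparison sex as a covariate gave -0.062 for FLT3 and -0.068 for PDGFRA. With a library left out FLT3 ranged from -0.51 to 0.52, PDGFRA from -0.95 to 1.64 and PDGFA from -1.39 to 0.77. Genes called between the breed groups numbered 44 higher and 58 lower by DESeq2, 2 higher in a fit of all 3 groups, 2 lower with a pseudocount of 5, and 0 to 1 in each direction with a library left out.

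Same-numbered libraries of different groups correlated at -0.14 to 0.10 in their deviations, so the numbers do not pair them. With the replicate block 2752 genes were higher and 2158 lower over all lymphomas, with 4 of the 7 higher; in Boxer lymphomas 7 of 7 were. At low counts depth limits the reading: PDGFRB rests on 2 control reads, KITLG on 7 and PDGFA on 8.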
